A study of Mus musculus with 61 samples.

Results

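Serotonin acts on the mouse brain through a family of receptors encoded by separate genes, and 8 of these genes were followed here through all 61 brain fractions of the series: Htr1a, Htr1b, Htr2a, Htr2c, Htr3a, Htr4, Htr5b and Htr7. The members are defined by gene name, with no threshold on a measured value. Each gene was read from the probe that carries its RefSeq accession on the array and, where there were several, from the one with the highest mean processed signal. The array holds probes for 14 serotonin receptor genes, so that 8 of 14 are members, out of 16358 genes named through RefSeq. Probes of Htr1a, Htr2c, Htr3a, Htr5b and Htr7 were well above background on all 61 arrays, that of Htr2a on 50, that of Htr1b on 35 and that of Htr4 on 9.

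The fractions came from 6 male C57BL/6J mice of 8 weeks, 2 per sectioning plane and none of them treated apart from perfusion with an RNA-preserving solution. Each brain was cut completely into slabs of 1 mm, and the RNA of a slab was hybridized with a single dye to its own array. The sagittal series are S with 9 and So with 10 fractions, the coronal series C with 13 and Co with 16, and the horizontal series H with 6 and Ho with 7, where "o" marks a slightly oblique cut. A slab holds every cell type at that level of the brain, so a lower level can mean fewer cells of a type or less RNA per cell, which cannot be told apart. The study placed 56 of the fractions into 28 pairs, 1 fraction from each mouse of a plane. These pairs serve here as the replicates of a position. The study chose them by the highest correlation of array intensities between fractions, and used the order of the fractions where several matched. The pairs thus rest on these same data, and the spread within them can be smaller than for pairs set by position alone. How far this lowers the SE and p-values was not tested. A pair is named here by plane and number, so that c5 is the fraction C5 with its partner Co6, h5 is H5 with Ho6 and s5 is S5 with So6. Because the partners differ in animal, cutting angle and mostly scan day, the spread within a pair contains all of these. A slide held up to 4 arrays, mostly neighbouring fractions of 1 series, so a term for the slide also takes up differences between positions.

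Most serotonin receptors are G protein-coupled receptors. The Htr1 and Htr5 groups signal mainly through inhibitory Gi/o proteins, the Htr2 group activates phospholipase C through Gq, and Htr4 and Htr7 raise cyclic AMP through Gs, whereas Htr3a encodes a subunit of a ligand-gated cation channel. Serotonin itself is made by neurons of the raphe nuclei in the brainstem, whose axons reach nearly all of the brain, so that the place of the receptor decides which cells respond.

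Positions were checked with marker genes. In the coronal series, the medulla marker Hoxb3 was highest in C1 and Co2 and the olfactory bulb marker Doc2g in C13 and Co15, so numbers run from caudal to rostral. Hcrt, the orexin gene of the hypothalamus at the base of the brain, was highest in H5 and Ho6, so the horizontal numbers run from dorsal to ventral. Tph2, the rate-limiting enzyme of serotonin synthesis in neurons and a midline gene of the raphe, peaked in S5 and So6, and in C5 and Co6. All levels below are log2 values relative to the 75th percentile of the probes on the same array, so that 0 means a signal equal to that percentile. That percentile lay between 740 and 1971 intensity units, and 57.9% to 73.1% of probes were well above background. Levels of different receptors come from different probes and were not compared with each other.

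The stretch of 250 bases before the start that the RefSeq promoter table uses is shown for Htr1a, Htr1b and Htr2c, which had the highest F over the coronal pairs among the 5 members with an entry in the RefSeq promoter table. Capitals mark the GC box, the letters GGGCGG or their reverse complement CCGCCC, the sequence that factors of the Sp family recognize. The promoters lie at chr13:105443443-105443692 on the plus strand for Htr1a, at chr9:81633833-81634082 on the minus strand for Htr1b and at chrX:146962263-146962512 on the plus strand for Htr2c (RefSeq, GRCm38.p6). For Htr1a and Htr1b the stretch ends where the gene begins, whereas the last bases of the Htr2c stretch lie inside the gene's interval given further on.
Htr1a: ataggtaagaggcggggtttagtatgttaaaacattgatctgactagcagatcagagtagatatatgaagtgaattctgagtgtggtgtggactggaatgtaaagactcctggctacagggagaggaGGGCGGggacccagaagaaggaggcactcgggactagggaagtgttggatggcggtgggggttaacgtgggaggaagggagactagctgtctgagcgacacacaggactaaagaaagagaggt
Htr1b: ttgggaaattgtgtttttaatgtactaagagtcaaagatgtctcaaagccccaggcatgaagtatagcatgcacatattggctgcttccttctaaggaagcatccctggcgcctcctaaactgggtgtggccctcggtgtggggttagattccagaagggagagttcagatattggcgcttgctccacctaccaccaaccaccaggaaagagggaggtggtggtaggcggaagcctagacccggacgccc
Htr2c: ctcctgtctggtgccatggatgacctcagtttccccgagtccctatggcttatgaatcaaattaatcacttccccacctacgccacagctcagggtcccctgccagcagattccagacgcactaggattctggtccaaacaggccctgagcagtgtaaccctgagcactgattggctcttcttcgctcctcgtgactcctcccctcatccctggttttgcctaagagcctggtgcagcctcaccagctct
The Htr1a stretch held 1 GC box and the other stretches held 0, against 32.74% of the 32851 promoters of the same length in the RefSeq table that held at least 1. The share of G and C was 50.4% for Htr1a, 52.4% for Htr1b and 55.6% for Htr2c, and the median of all promoters was 52.4%. These are descriptions of letters and say nothing on which factors bind there.

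How far each receptor varied was tested over the 28 pairs of all planes together. The test thus also holds differences between planes, which have their own mice and mostly their own scan days, beside those of place. Of the 8 receptors, 7 varied at an adjusted p under 0.05 (moderated F test in limma, Benjamini-Hochberg over 36573 probes), while 61.3% of all probes tested did. Htr2c, a Gq-coupled receptor known for its high level in the choroid plexus, had an F of 27.2 (adjusted p = 1.02e-12). Htr1b, an inhibitory receptor of axon terminals, had 12.7 (adjusted p = 6.16e-09), and Htr5b, a Gi/o-linked receptor that is functional in rodents, had 10.6 (adjusted p = 4.49e-08). Smaller values were found for Htr3a (3.91, adjusted p = 0.000669), Htr1a (3.70, adjusted p = 0.00104), Htr4 (2.46, adjusted p = 0.0176) and Htr7 (2.34, adjusted p = 0.0235). For Htr4 most of the values tested were not well above background, the second Htr4 probe did not pass (F 1.58, adjusted p = 0.153), and the call was lost with the slide as a fixed term (adjusted p = 0.359). Over the pairs of any single plane Htr4 did not pass. Htr7 lost its call without the array of C1 (F 2.03, adjusted p = 0.0534). Htr2a, the cortical Gq-coupled receptor, was the only member of the 8 that did not pass (F 0.995, adjusted p = 0.571), and with the mouse as a block it did (adjusted p = 0.000264).

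By plane, 6 of the 8 receptors varied over the coronal pairs, where 47.1% of all probes did. Htr2c led with an F of 42.6 (adjusted p = 1.13e-13), followed by Htr1b with 23.7 (adjusted p = 1.05e-10), Htr5b with 18.3 (adjusted p = 2.02e-09), Htr1a with 7.37 (adjusted p = 2.36e-05), Htr3a with 4.25 (adjusted p = 0.00205) and Htr7 with 3.13 (adjusted p = 0.014). Over the horizontal pairs 2 receptors varied, with a background of 12.0%, and these were Htr2c (F 27.5, adjusted p = 1.06e-07) and Htr5b (F 6.22, adjusted p = 0.00722). Over the sagittal pairs 2 varied, with a background of 11.1%, namely Htr2c (F 7.41, adjusted p = 0.000575) and Htr1b (F 4.40, adjusted p = 0.0165). With the mouse as a block, the horizontal count became 4 with Htr3a (adjusted p = 0.0011) and Htr7 (adjusted p = 0.0054), and the sagittal count 5 with Htr3a (0.0384), Htr5b (0.0177) and Htr7 (0.00546), all as adjusted p-values of limma. The shares of 12.0% and 11.1% belong to the fit without the block. The shares of all probes with it are not given, so these larger counts are not read as particular to the receptors.

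Signed differences were then taken between zones set by pair number. Their SE and p come from the spread within pairs and do not measure how a zone difference varies between mice. Rostral pairs c10 to c13 were set against caudal pairs c1 to c4, where 3 of the 8 receptors differed against 47.6% of all probes: Htr1b, Htr2c and Htr3a were all lower at the rostral end. The middle pairs c5 to c9 were set against both ends, and 4 of the 8 differed against 35.2% of probes, with Htr1a, Htr2c and Htr7 higher in the middle and Htr3a lower. Dorsal pairs h1 to h3 were set against ventral pairs h4 to h6, and 2 receptors differed against 12.6% of probes, Htr2c and Htr5b, both lower dorsally. Midline pairs s4 to s6 were set against the lateral pairs s1, s2, s8 and s9, and again Htr2c and Htr5b were the 2 that differed, both higher at the midline, with a background of 19.6%. The median difference of the 8 receptors and that of all probes were −0.29 and −0.10 for rostral minus caudal, 0.43 and −0.07 for the middle minus the ends, −0.36 and 0.01 for dorsal minus ventral, and 0.03 and 0.00 for midline minus lateral. Between the sides of the brain, s1 to s4 against s6 to s9, 0 receptors differed, and 0.153% of all probes did.

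**Figure D1:**
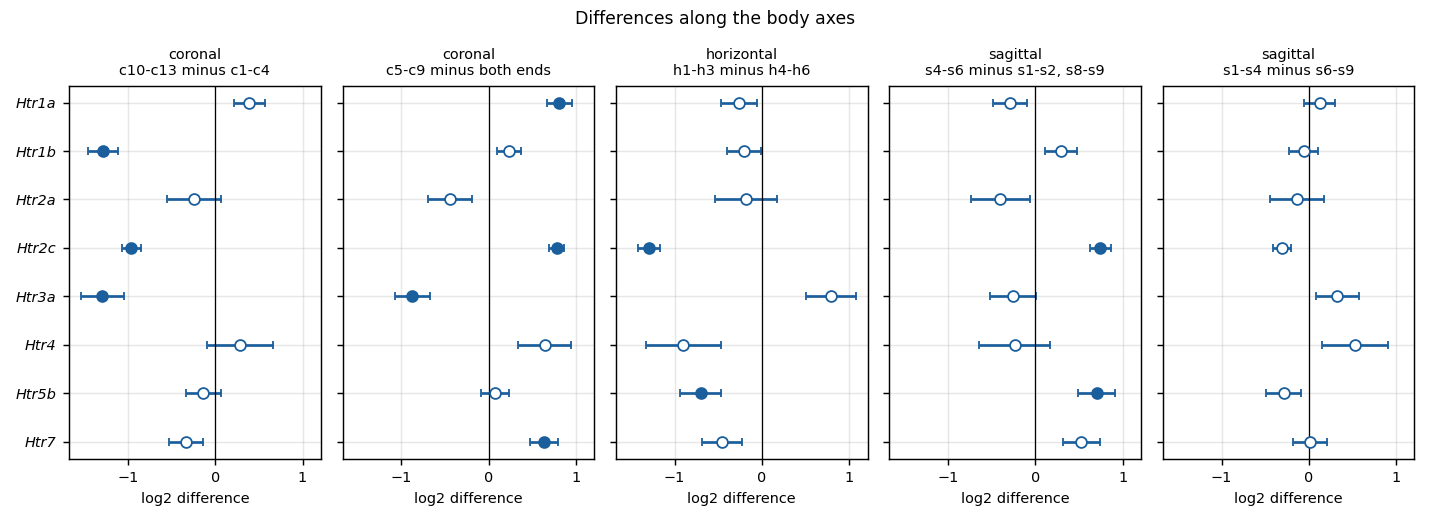
Difference between zones (log2, horizontal axis) for the 8 receptors (vertical axis), 1 panel per axis of the brain, from the limma fit over 28 pairs. Points are the differences, bars are 1 SE and filled points passed an adjusted p of 0.05. Htr2c is the only member with a filled point in 4 of the 5 panels, and the panel of side against side has none.

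Htr1a is the inhibitory autoreceptor of serotonin neurons and also a receptor of hippocampal and cortical neurons (chromosome 13, 105443693 to 105448133). In the C series its level ran from −3.75 in C13 through a median of −2.19 to −1.29 in C5, and in the Co series from −4.17 in Co5 through −2.97 to −2.15 in Co6. The highest fraction of each coronal mouse, C5 and Co6, was thus the partner of the other, and was also the fraction with the most Tph2. Just caudal to it the level was low, −3.31 in C4 and −4.17 in Co5. The step from C4 to C5 was 4.05-fold and that from Co5 to Co6 was 4.06-fold. C4 and C5 lay on different slides, whereas Co5 and Co6 lay on the same slide.

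The mean of pair c5 was −1.72 ± 0.61 (SD, n = 2), and 4 other coronal pairs lay within 2 SE of it. These were its neighbours c6 (−2.05) and c7 (−2.34), and further rostral c10 (−2.27) and c11 (−2.17). Between them c8 (−2.80) and c9 (−2.45) were lower. The top position was thus not set apart from these 4 pairs. The lowest pair was c13 in the olfactory bulb with −3.82. The middle zone exceeded the ends by 0.81 ± 0.14 (SE, adjusted p = 4.65e-05), and with the slide as a fixed term by 1.04 (adjusted p = 7.99e-05). Rostral minus caudal, it differed by 0.39 (adjusted p = 0.0726, and 0.000804 with the mouse as a block), and this passed without C1, C2, C4, Co11 or Co12, with adjusted p from 0.0183 to 0.0453. In the other planes Htr1a moved little: between −3.15 and −2.04 in S, −2.90 and −2.23 in So, −3.08 and −2.38 in H, and −3.49 and −2.33 in Ho. In S5 and So6, the sagittal fractions with the most Tph2, Htr1a was at −2.84 and −2.35, which was not the highest of either series. In all 6 mice Htr1a was higher in the fraction with the most Spink8, a marker of Ammon's horn in the hippocampus, than in the mean of the mouse's other fractions, by 0.26 ± 0.21 (SD over 6 mice).

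Htr1b inhibits transmitter release from axon terminals, and its RNA is known from striatal neurons and Purkinje cells (chromosome 9, 81628291 to 81633832). Along the C series it ran from −8.78 in C13 through a median of −5.71 to −4.46 in C10, and along Co from −8.52 in Co15 through −6.17 to −5.00 in Co5. In both mice there were 2 zones of higher level: a caudal zone with −4.89, −4.99 and −4.98 in C2, C3 and C4 and with −5.20 and −5.00 in Co4 and Co5, and a rostral zone with −4.57 and −4.46 in C9 and C10 and −5.36 and −5.17 in Co10 and Co11. Between them the level fell to −6.13 in C6 and −6.69 in Co8. The rostral fractions C12, C13 and Co13 to Co16 were not well above background, nor were C1, Co9 and the caudal fractions Co1 to Co3.

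Pair c10 had the highest mean, −4.82 ± 0.50 (SD, n = 2), and pair c9 followed at −4.96. Caudal pairs exceeded rostral pairs, the difference being −1.29 ± 0.17 (SE, rostral minus caudal, adjusted p = 1.68e-07), a value that includes fractions not above background at both ends. With the slide as a fixed term it was −0.91 (adjusted p = 0.554), and with the slide as a random block its adjusted p was 0.000223. Since C1 to C4, the caudal zone of C, made up 1 slide, slide and position cannot be told apart here. In the sagittal series 3 of 9 S fractions and 2 of 10 So fractions were well above background, so that the sagittal F test rests mostly on values that were not. S1 with −7.17 and So1 with −7.37 were the lowest, and the sagittal call was lost without S1 (adjusted p = 0.196) or without So2 (adjusted p = 0.0809). All 6 mice had more Htr1b in the fraction richest in Ppp1r1b, the striatal phosphoprotein DARPP-32, by 0.81 ± 0.47 (SD over 6 mice). That fraction was well above background in each mouse, while the fractions it was set against include some that were not.

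**Figure D2:**
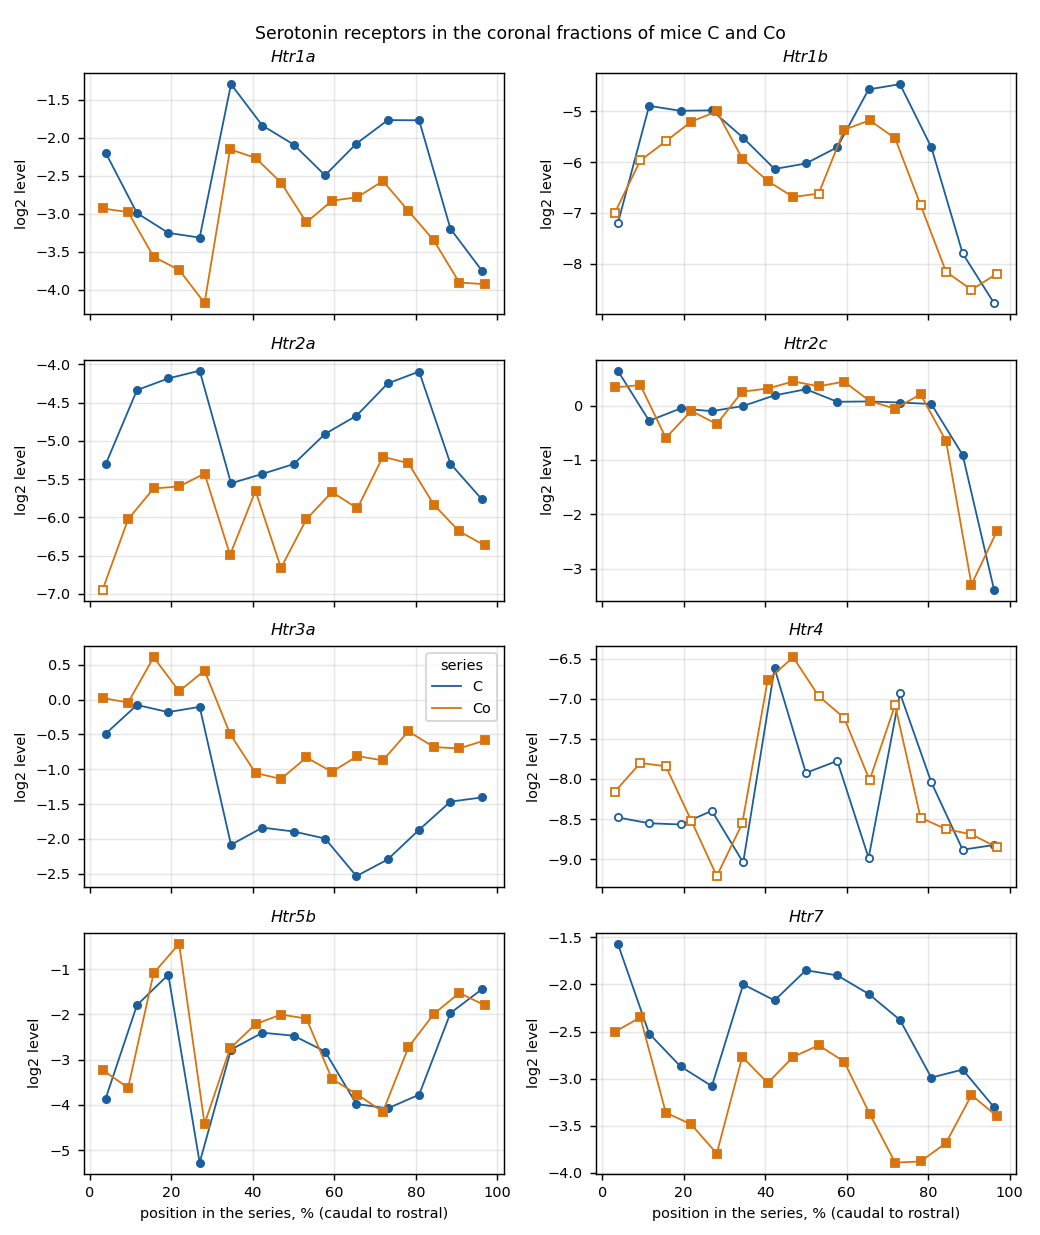
Level of each receptor (log2 relative to the 75th percentile of the array, vertical axes with a range of their own) by position in the coronal series from caudal to rostral (horizontal axis, percent of the series), 1 panel per receptor. The lines join the fractions of the C and the Co mouse, and open symbols mark fractions not well above background. At the same position in both mice, Htr1a steps up, from −3.31 to −1.29 in C and from −4.17 to −2.15 in Co, just rostral to the drop of Htr5b to −5.28 and −4.42.

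Htr2c activates phospholipase C and is known from the choroid plexus and from many neurons (X chromosome, 146962464 to 147197277). Along the coronal axis it fell furthest at the rostral end. Near the caudal end it also dropped in both mice, from 0.64 in C1 to −0.28 in C2 and from 0.38 in Co2 to −0.59 in Co3. In C its level ran from −3.38 in C13 through a median of 0.03 to 0.64 in C1, and in Co from −3.29 in Co15 through 0.15 to 0.44 in Co8. Only the 2 most rostral fractions of C (C12 at −0.91 and C13) and the 3 most rostral of Co (Co14 at −0.65, Co15, and Co16 at −2.31) were below −0.60 in the coronal series. These are the fractions at the olfactory end of the brain. From C12 to C13, which lay on different slides, it fell 5.56-fold, and from Co14 to Co15, on the same slide, 6.23-fold.

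The pair c1 had the highest mean, 0.51 ± 0.19 (SD, n = 2), and c13 the lowest, −3.34 ± 0.07, a 14.4-fold difference. Rostral minus caudal, Htr2c differed by −0.96 ± 0.11 (SE, adjusted p = 7.07e-09), and the middle exceeded both ends by 0.78 ± 0.09 (adjusted p = 1.9e-08). With the slide as a fixed term the first was −0.94 (adjusted p = 0.234) and the second 0.95 (adjusted p = 0.00111). The caudal zone of C lay on 1 slide, so for the first, slide and position cannot be told apart.

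The dorsal surface was the other place of low Htr2c. From H1 to H6 the levels were −1.54, −1.27, −0.60, 0.17, 0.63 and 0.35, and from Ho1 to Ho7 they were −3.27, −1.54, −0.79, −0.23, 0.08, 0.27 and 0.27. All paired dorsal fractions were below all ventral fractions in both mice. The difference of dorsal minus ventral pairs was −1.29 ± 0.12 (SE, adjusted p = 9.43e-09), and −1.60 with the slide as a fixed term (adjusted p = 0.00429). Within the mice it was −1.52 in H and −1.06 in Ho. Pairs h5 and h1 differed 3.97-fold.

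From side to side, Htr2c peaked at the midline, with 0.54 in S6 and 0.65 in So5 against −0.53 in S2 and −1.98 in So1 as the lowest. Midline pairs did not overlap with the lateral pairs in either mouse and exceeded them by 0.74 ± 0.12 (SE, adjusted p = 1.37e-05). The second Htr2c probe on the array gave a lower signal, from −6.65 in Co15 to −1.75 in C1, and was well above background on 58 arrays. Its levels followed the first probe with r = 0.976 over the 61 fractions (series means subtracted, fractions of a mouse share an animal and mostly a slide). Within the coronal series the second probe differed between the mice, by −1.40 ± 0.12 (SE, Co minus C, adjusted p = 2.25e-10), whereas the first did not (0.05 ± 0.08, adjusted p = 0.672). The second probe stood between −3.05 and −1.75 in C1 to C12 and at −6.52 in C13, which was scanned with the H series, and between −6.65 and −3.45 in Co. The part of the scan day in this difference was not tested.

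In the tests over the pairs the second probe passed for all pairs (adjusted p = 0.0264), the coronal pairs (0.00361) and the middle against the ends (0.0422). It did not pass for the horizontal pairs (0.383), the sagittal pairs (1), rostral against caudal (0.0677), dorsal against ventral (0.0527) or midline against lateral (0.386), all as adjusted p of limma.

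**Figure D3:**
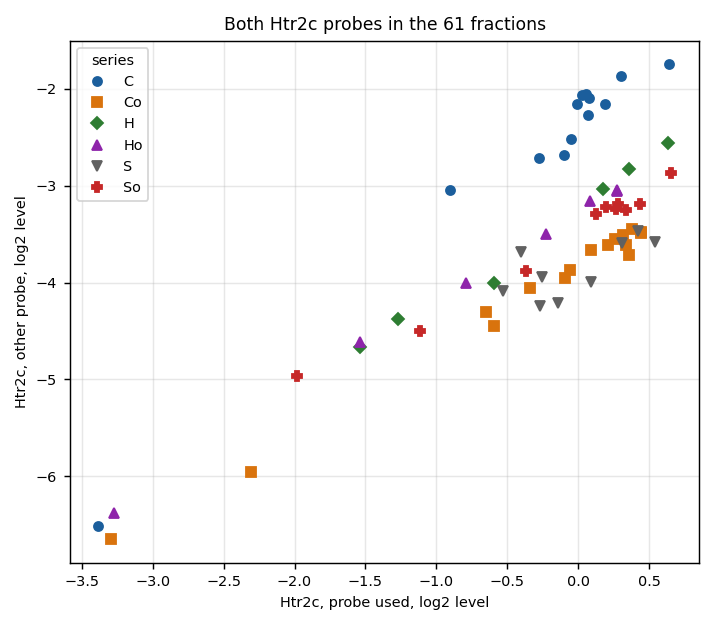
Levels of the main Htr2c probe (horizontal axis) and of the second Htr2c probe (vertical axis), both log2 relative to the 75th percentile of the array, in the 61 fractions, with a colour and symbol for each series. The fractions rise together (r = 0.976 with series means subtracted), with C13, Co15 and Ho1 at the lower end, and C1 to C12 form a band of their own above the other series on the vertical axis.

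Htr2a, the Gq-coupled receptor through which classic hallucinogens act and which is known from cortical pyramidal neurons, did not pass the F test in any plane (chromosome 14, 74640874 to 74706859). It ran from −5.76 in C13 to −4.08 in C4 with a median of −4.91, and from −6.94 in Co1 to −5.21 in Co12 with a median of −5.86. In all 13 coronal pairs the C fraction was higher than its Co partner. The highest values in C lay in C2 to C4 and in C10 and C11, and in Co the highest lay in Co12, Co13 and Co5. The largest coronal step was a fall at the same place in both mice, 2.77-fold from C4 to C5 across a slide edge and 2.09-fold from Co5 to Co6 on the same slide. With the mouse as a block Htr2a varied over the coronal pairs (F 3.45, adjusted p = 0.00666), against an adjusted p of 0.47 without it. In So, the fraction So9 stood at −3.73 with its neighbours at −5.35 and −6.42, the latter not well above background, and its partner S8 stood at −5.62. In the sagittal plane 4 of 9 S fractions and 5 of 10 So fractions were well above background.

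Htr3a encodes the obligatory subunit of the serotonin-gated channel and is known from a class of cortical interneurons (chromosome 9, 48899213 to 48911152). It was highest at the caudal end of the coronal series. C1 to C4 stood at −0.49, −0.08, −0.18 and −0.10, and C5 to C13 between −2.53 and −1.40. In Co, Co1 to Co5 stood at 0.02, −0.04, 0.61, 0.12 and 0.42, and Co6 to Co16 between −1.14 and −0.45. The caudal fractions did not overlap with the rest in either mouse. The step from C4 to C5 was 3.95-fold across a slide edge, and that from Co5 to Co6 was 1.88-fold on the same slide.

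Rostral minus caudal pairs, Htr3a differed by −1.29 ± 0.25 (SE, adjusted p = 5.23e-05). With the slide as a fixed term this was −0.90 (adjusted p = 0.184), and with the slide as a random block the adjusted p was 5.76e-05. Slide and position overlap here as for Htr1b. The middle pairs were lower than the ends by −0.87 ± 0.20 (adjusted p = 0.000834), and by −0.83 with the slide as a fixed term (adjusted p = 0.00106). In the horizontal series Htr3a fell from dorsal to ventral, with −1.16, −1.20, −1.73, −2.23, −2.37 and −2.54 in H1 to H6 and −0.94, −1.59, −1.77, −1.96, −2.29, −2.47 and −2.27 in Ho1 to Ho7. The dorsal and ventral pairs did not overlap in either mouse. The difference was 0.79 ± 0.28 (SE, adjusted p = 0.0654), and with the mouse as a block its adjusted p was 6.11e-05. It also passed without C5, C9, C10 or their partners, with adjusted p from 0.0436 to 0.0469. A list for interneurons of the caudal ganglionic eminence held 6 genes, and all differed between rostral and caudal pairs (47.6% of all probes did). Of these genes, 4 were higher at the rostral end, where Htr3a was lower. Their rostral minus caudal differences were 4.32 for Vip, 2.60 for Npy, 2.50 for Cck and 0.80 for Adarb2. The others, Calb2 (−1.41) and Reln (−0.36), were lower there, as Htr3a was. Within the coronal series Htr3a went against the mean level of the 6 genes, with r = −0.59 in C and −0.60 in Co. In the other series it went with that mean, with r = 0.94 in H, 0.73 in Ho, 0.54 in S and 0.16 in So. A slab holds every cell type, so the 6 genes were not read as a measure of these interneurons.

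**Figure D4:**
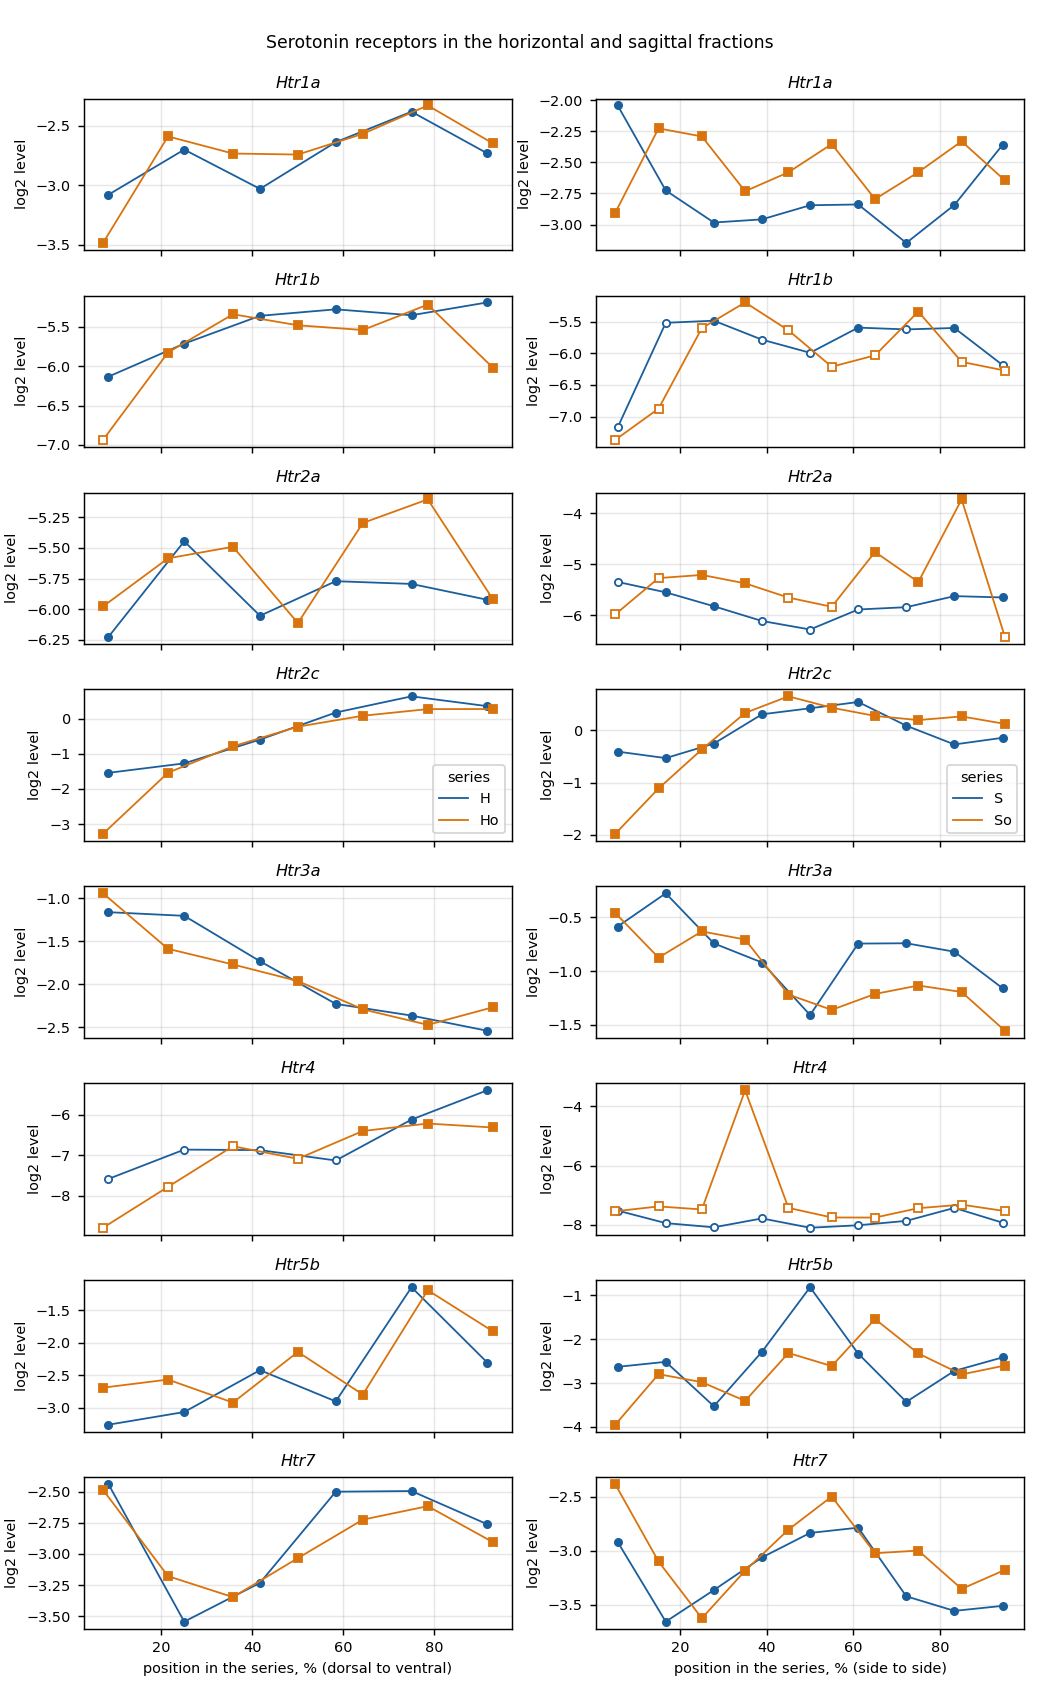
Levels (log2 relative to the 75th percentile of the array, vertical axes) of the receptors by position from dorsal to ventral in H and Ho (left) and from side to side in S and So (right), in percent of the series (horizontal axes). Lines join the fractions of a mouse and open symbols mark fractions not well above background. Htr2c rises from −1.54 in H1 to 0.63 in H5, Htr3a falls from −1.16 to −2.54 in H, and Htr5b peaks in H5 (−1.14) and Ho6 (−1.19).

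Htr5b had the sharpest steps between neighbouring fractions of the coronal series (chromosome 1, 121509758 to 121529312). It is a receptor gene with an intact reading frame in rodents, and its RNA is known from the inferior olive, the habenula and the dorsal raphe. In C it ran from −5.28 in C4 through a median of −2.78 to −1.13 in C3, and in Co from −4.42 in Co5 through −2.47 to −0.44 in Co4. Its highest and its lowest fractions were therefore neighbours in both mice. The level fell 17.8-fold from C3 to C4, which lay on the same slide, and 15.8-fold from Co4 to Co5, across a slide edge.

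Rostral to the drop it rose again, to −2.41 in C6 and −2.22 in Co7, fell to −4.08 in C10 and −4.15 in Co12, and rose to −1.45 in C13 and −1.53 in Co15 at the olfactory bulb. Pair c3 had a mean of −0.78 ± 0.48 (SD, n = 2) and c4 of −4.85 ± 0.60, a 16.7-fold difference. Since high and low pairs alternated, the zone contrasts along this axis did not show them, with rostral minus caudal differences of 0.20 within C and −0.47 within Co. In the horizontal plane the peak was a single fraction, −1.14 in H5 and −1.19 in Ho6, against medians of −2.66 and −2.57. Pair h5 had a mean of −1.17 ± 0.03 (SD, n = 2) and 0 other horizontal pairs within 2 SE of it.

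Dorsal minus ventral, Htr5b differed by −0.70 ± 0.23 (SE, adjusted p = 0.0402), and by −0.71 with the slide as a fixed term (adjusted p = 0.545). This call was lost without any 1 of 10 of the 12 paired horizontal arrays, all but H6 and Ho2, with adjusted p from 0.0502 to 0.141. The horizontal F test was lost without H5 (adjusted p = 0.0623) or Ho6 (adjusted p = 0.0541). In the sagittal series the highest fractions were S5 with −0.82 and So7 with −1.54, both near the midline but not partners. The sagittal F test of Htr5b (adjusted p = 0.0537) passed without S6, S7, So6, So8, C4 or Co5, with adjusted p as low as 0.00116 without So6. The midline excess of 0.70 ± 0.22 (SE, adjusted p = 0.0188) was 0.40 without S5 (adjusted p = 0.19) and 0.57 without So7 (adjusted p = 0.0874). In all 6 mice Htr5b was higher in the fraction with the most Hcrt (by 0.85 ± 0.66, SD over 6 mice). The same held for the fraction with the most Gpr151, a marker of the habenula (by 0.61 ± 0.66), and for that with the most Prox1, of the dentate gyrus (by 0.40 ± 0.59). Over the 61 fractions, however, its r with the mean of the 2 habenula markers was −0.04 (series means subtracted), negative in C (−0.26) and Co (−0.13).

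Htr7 stimulates adenylyl cyclase and is known from the thalamus, hypothalamus and brainstem (chromosome 19, 35958415 to 36058133). In C its level ran from −3.30 in C13 through a median of −2.38 to −1.57 in C1, and in Co from −3.89 in Co12 through −3.27 to −2.35 in Co2. In both mice the caudal end was high, the level dropped to −3.08 in C4 and −3.80 in Co5, rose to −1.85 in C7 and −2.65 in Co9, and fell again to −2.99 in C11 and −3.89 in Co12. Pair c1 had the highest mean (−1.96), c8 followed (−2.28), and c11 was the lowest (−3.44). The middle pairs exceeded the ends by 0.64 ± 0.16 (SE, adjusted p = 0.00227), and by 0.58 with the slide as a fixed term (adjusted p = 0.00838).

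Midline minus lateral, Htr7 differed by 0.53 ± 0.21 (SE, adjusted p = 0.0873, and 0.000243 with the mouse as a block). In the horizontal series it was lowest in H2 (−3.54) and Ho3 (−3.35), which are partners, and the dorsal fractions H1 (−2.44) and Ho1 (−2.49) were the highest of their series. Over the paired fractions Htr7 was nevertheless lower dorsally, by −0.49 in the H mouse and −0.44 in the Ho mouse, where the zones did not overlap. The difference over both was −0.46 ± 0.23 (SE, adjusted p = 0.228, and 0.00288 with the mouse as a block). In all 6 mice Htr7 was higher in the fraction with the most Slitrk6, a marker of the thalamus (0.46 ± 0.15, SD over 6 mice), and in that with the most Hoxb3 (0.46 ± 0.37). It was lower in the fraction with the most Pcp2, the Purkinje cell gene (−0.53 ± 0.22), in 6 of 6 mice.

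Htr4, a Gs-coupled receptor known from the striatum and hippocampus, was near the limit of the array (chromosome 18, 62323546 to 62503027). It was well above background in C6 at −6.62, in Co7 at −6.76 and Co8 at −6.48, in H5 at −6.12 and H6 at −5.40, in Ho5 at −6.40, Ho6 at −6.22 and Ho7 at −6.32, and in So4 at −3.45. In the horizontal series these are the ventral fractions of both mice. So4 stood apart, since the other So fractions ranged from −7.75 to −7.32 and its partner S3 was at −8.08, none of them well above background. The second Htr4 probe did not show So4 high, at −7.7, and was well above background on 2 arrays. Because most fractions were not well above background, the plotted zone differences of Htr4 are not read as sizes. Without So4 or its partner S3 the coronal F test passed (adjusted p = 0.00123, and 0.175 with all arrays), as did dorsal against ventral (0.0232, and 0.21 with all arrays) and the middle against the coronal ends (0.00781, and 0.0999 with all arrays).

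The mice of a plane also differed from each other. Between Co and C, 4 of the 8 receptors differed in a model with the pairs, against 53.4% of all probes. Htr3a was higher in Co by 0.90 ± 0.09 (SE, adjusted p = 2.92e-09), and Htr7, Htr1a and Htr2a were lower, by −0.73 ± 0.08 (adjusted p = 4.89e-09), −0.61 ± 0.07 (adjusted p = 6.51e-08) and −1.01 ± 0.14 (adjusted p = 8.85e-07). Between Ho and H, which were scanned together, 0 of the 8 differed, against 5.52% of probes. Between So and S, Htr1a (0.25 ± 0.09, adjusted p = 0.0384) and Htr2a (0.50 ± 0.17, adjusted p = 0.0281) were higher in So, 2 of 8 against 29.9% of probes, and both calls were lost without single fractions, that of Htr2a without S8 or So9 (0.33, adjusted p = 0.125) and S6 or So7 (0.42, adjusted p = 0.0863), and that of Htr1a without any of 12 arrays, with adjusted p up to 0.109. Animal, cutting angle and scan day cannot be told apart in these differences. They add to the spread within the coronal pairs, which for Htr1a had an SD of 0.61 in c5 and 0.11 in c13.

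To describe the levels by brain area, each receptor was read in the fraction with the highest first marker of 13 areas, and the mean of the mouse's other fractions was subtracted. Of 104 combinations of receptor and area, 19 had the same sign in all 6 mice. The same count was not made over all probes, so the 19 are not read as particular to these receptors. Of these 19, 16 kept it when the arrays were scaled to the median or the authors' normalized table was used, and 15 when every fraction near the marker's maximum was averaged. Some of the 19 rest on receptor values not well above background, and no size is given for those of Htr2a and Htr4 or for Htr1b with Ttr. With 6 mice the exact sign-flip permutation test can give no p below 0.03125, and the smallest after Benjamini-Hochberg adjustment over the 104 was 0.171, so no combination passed. The largest means among the 19 were those of Htr5b for Hcrt and of Htr1b for Ppp1r1b given above. Htr2c was higher in all 6 mice in the fractions with the most Hcrt (0.75 ± 0.36, SD), Hoxb3 (0.71 ± 0.33), Slitrk6 (0.63 ± 0.20) and the dopamine transporter gene Slc6a3 (0.63 ± 0.29). Different areas can be read from the same fraction of a mouse, so these are not separate findings by area. The highest difference of Htr2c, 1.18, was the same for Hoxb3, Slc6a3 and Ppp1r1b, and the lowest, 0.36, the same for Hcrt and Slitrk6. In the fraction with the most Ttr, Htr2c was higher in 4 of 6 mice (0.14 ± 0.48). Htr3a was lower in all 6 mice with Slitrk6 (−0.49 ± 0.13) and Slc6a3 (−0.42 ± 0.22).

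Over all 61 fractions the levels were also set against the mean level of each area's marker list, after subtracting the mean of each series. These correlations are descriptions over fractions that share animals and slides. Htr1a went with the markers of Ammon's horn (r = 0.61, positive in 6 of 6 series) and hardly with those of the raphe (r = 0.05). Htr1b and Htr2c had their highest r with Prox1 (0.70 and 0.66), the only matched gene of the dentate gyrus list, whose peak fractions C8 and Co3 lie far apart. Htr1b also went with the markers of the cerebellum (r = 0.48, positive in 5 of 6 series), the choroid plexus (r = 0.47, 6 of 6), the striatum and the thalamus (both r = 0.36, 6 of 6). Htr2c went with those of the thalamus (r = 0.51, 6 of 6). It went less with those of the medulla and pons (0.41), raphe (0.39), habenula (0.36), striatum (0.35) and choroid plexus (0.33), each positive in 6 of 6 series. Htr7 went with the markers of the habenula (r = 0.55), which was positive in 4 of 6 series and negative in H and Ho. Htr3a went with the cerebellar markers (r = 0.66, positive in 4 of 6 series) and against those of Ammon's horn (r = −0.73, positive in S and So) and the striatum (r = −0.69, positive in 1 of 6). Htr5b had its highest values with dopamine neuron markers (r = 0.42) and raphe markers (r = 0.34), both positive in 6 of 6 series.

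**Figure D5:**
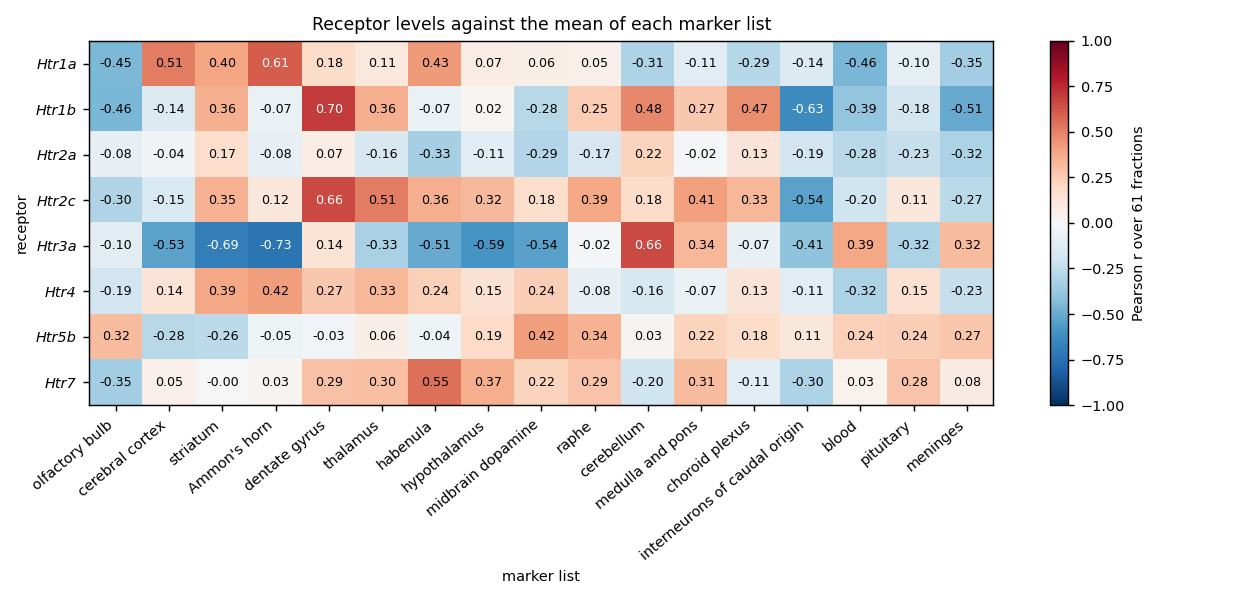
Pearson's r between each receptor (rows) and the mean level of each marker list (columns) over 61 fractions with series means subtracted, as colours from negative to positive with the value in each cell. Htr3a and Htr1a have opposite signs for Ammon's horn (−0.73 and 0.61), and the values of Htr2a lie between −0.33 and 0.22.

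The genes most like each receptor over the 61 fractions were taken from 13013 named genes well above background on at least 31 arrays. They were Rspo2, Gpr45 and Tspyl3 for Htr1a (r = 0.88, 0.88 and 0.84), and Kcnab1, Lingo3 and Dach1 for Htr1b (r = 0.91, 0.90 and 0.89). For Htr2c they were Cdk18, Rftn1 and Rapgef6 (r = 0.95, 0.93 and 0.90), and for Htr3a Lnx1, Kdm8 and Naip6 (r = 0.95, 0.95 and 0.94). Htr7 was most like Pnoc, which encodes the precursor of nociceptin, with r = 0.79, then Dusp26 and Edil3, both with r = 0.75. The best values were lower for Htr2a (Atp11b, Tmem184b and Zfyve28, r = 0.67 each), Htr4 (Mttp, r = 0.64) and Htr5b (Wif1, r = 0.63). With normexp and quantile normalization some of these genes ranked much lower, namely Edil3 at 101 (r = 0.55), Tmem184b at 94 (r = 0.48), Atp11b at 30 (r = 0.53), Rapgef6 at 25 (r = 0.79) and Dusp26 at 14 (r = 0.68). Among the receptors themselves, r was highest between Htr1b and Htr2c (0.63) and lowest between Htr1a and Htr3a (−0.55).

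Of the 6 other serotonin receptor genes with a probe, 5 could be tested, since Htr3b was well above background on 0 arrays. Over the 28 pairs 2 of the 5 varied, Htr6 (adjusted p = 4.47e-13) and Htr1d (adjusted p = 6.31e-07), beside 61.3% of all probes. Along the coronal axis 3 of the 5 differed, beside 47.6% of all probes, in the direction opposite to Htr1b, Htr2c and Htr3a: Htr6, a Gs-coupled receptor of the striatum, was higher at the rostral end by 1.77 ± 0.10 (SE), Htr1d by 1.17 ± 0.18 and Htr1f by 0.80 ± 0.30 (adjusted p = 0.0279).

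Of the 8 genes of serotonin synthesis and clearance, 7 varied over the pairs (61.3% of all probes). Rostral minus caudal, 7 differed (47.6% of all probes) and 6 of them were lower, among them the serotonin transporter gene Slc6a4 (−3.19 ± 0.43, SE) and Tph2 (−2.25 ± 0.38), and at the midline 6 differed (19.6% of all probes), all higher, with Slc6a4 at 4.97 ± 0.46 and Tph2 at 3.05 ± 0.41. Among downstream genes, 2 of 4 Gi/o proteins, 5 of 6 genes of Gq and phospholipase C, 6 of 7 of Gs and adenylyl cyclase and 2 of 4 receptor-binding proteins varied over the pairs, beside 61.3% of all probes. Along the coronal axis the Gq group was split, with Plcb4 (−1.89) and Itpr1 (−1.46) lower and Plcb1 (1.09) higher at the rostral end, and so was the Gs group, with Adcy1 at −1.27 and Adcy5 at 1.25.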

How the data were processed

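Total RNA of 61 brain fractions was hybridized with Cy3 to 1 Agilent array each. The authors deposited the intensity of every spot from Agilent Feature Extraction 9.1.3.1, background-subtracted and not normalized between arrays, and a table of intensities normalized in GeneSpring, which served as an alternative after a log2 transform. Here, log2 of the processed signal of 43379 non-control spots was averaged per probe (41174 probes), and the array's 75th percentile was taken off. The 36573 probes well above background on at least 1 array were tested with limma 3.58.1 in R 4.3.3 (lmFit and eBayes, 28 pairs, 28 residual degrees of freedom), with Benjamini-Hochberg adjustment and a threshold of 0.05. The number of arrays limits the precision, not the spots (median SD between spots 0.0637).

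The members are defined by gene name and the zones by pair number, but members, lists and zones were chosen with earlier results of these data known, so the tests are no independent support for patterns seen before. Symbols came from the RefSeq accessions of 22951 probes. The genes named are the members, 2 to 4 genes of each list, the first marker of an area (1 is not reported here) and the 3 genes most like a member, for 1 probe per gene. The markers Dsp, Kcnj13 and Hbb-b1 were not matched. Names of the S fractions follow the study's numbering, 1 to 9, whereas the labels number them from 2 on, 1 higher each. S1 is thus the fraction labelled 2, and no array is labelled as fraction 1 of S. The scripts were tested on simulated data. Figures and permutation tests used Python 3.11.15, scipy 1.17.1 and matplotlib 3.10.9.

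Fractions of a series come from the same mouse per the labels, which pairs them across the positions of a plane. Their deviations from the pair means had a median r of 0.278 over 129 combinations within a mouse (115 of them over 0.1) and of −0.0255 over 249 combinations between mice. Alternatives were scaling to the median, the normalized table, normexp with an offset of 50, filters on dim probes, a floor of 5, the other probes, blocks for mouse, slide and scan day, other pairings, single planes and each array left out. The arrays lay on 16 slides scanned on 5 days.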

Additional observations from a re-analysis of the deposited data

Results flagged for a closer look

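Within a series of 6 to 10 fractions, 4 of the 32 combinations of receptor and series had a fraction whose gap to its nearest neighbour in value took a large share of the whole range, past Dixon's limit. Chance alone gives about 1 in 20 such combinations, and fractions are positions in a brain and not replicates, so a gradient can meet the limit as well.

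In So, Htr4 stood at −3.45 in So4 against a median of −7.46, and the gap was 0.899 of the range. The second Htr4 probe did not show it. In Ho, Htr1a stood at −3.49 in the most dorsal fraction Ho1, which has no partner, against a median of −2.65 (0.643 of the range). In S, Htr1b stood at −7.17 in the lateral fraction S1, not well above background, against a median of −5.62 (0.585 of the range). In S, Htr5b stood at −0.82 in the midline fraction S5 against a median of −2.52 (0.542 of the range). No explanation of these values was tested.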

How the results depend on the processing

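No called difference changed its direction in any alternative. Of the recomputed values of single receptors, 6206 kept their side of the threshold, 101 passed it, 59 lost it and 7 values without a test moved. The number of receptors called moved by over 1.5 times in these cases. The shares of all probes called under the alternatives are not given, so the counts below are not read as particular to the receptors. With the mouse as a replicate block, the horizontal count went from 2 to 4, the sagittal from 2 to 5, rostral against caudal from 3 to 5, dorsal against ventral from 2 to 4 and midline against lateral from 2 to 4, and the block moved no other count that far. With the scan day as a term the same 5 counts were 4, 5, 5, 4 and 4. With the slide as a fixed term, rostral against caudal fell to 0 and dorsal against ventral to 1, and the sagittal contrasts could not be fitted. Because slides hold neighbouring fractions, this term also takes up differences between positions, and the parts of slide and position cannot be told apart. The slide as a random block gave 4 sagittal calls, normexp gave 1 sagittal and 1 dorsal call, and the sagittal pairs fitted alone gave 1. The other Htr2c probe gave 1 call each for the horizontal, sagittal, dorsal and midline tests. Pairing by equal fraction numbers left 3 of 7 calls over all pairs. Leaving out single arrays gave 6 to 7 calls over all pairs, 6 to 7 coronal, 1 to 2 horizontal, 1 to 3 sagittal, 3 to 4 for rostral against caudal, 4 to 5 for the middle against the ends, 1 to 3 dorsal, 1 to 2 midline and 0 to 1 between sides, and for the mice 4 to 5 coronal, 0 to 0 horizontal and 0 to 3 sagittal. Of the area combinations, 21 to 26 had 1 sign in all remaining mice when a mouse was left out. Values not well above background have no reliable size, and of 61 arrays only 9 were well above it for Htr4, 35 for Htr1b and 50 for Htr2a.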
